A study of Homo sapiens with 4 samples.

Results

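Bone morphogenetic proteins (BMPs) bind receptors at the cell surface, and the receptors phosphorylate SMAD1 and its close relatives. Phosphorylated SMAD1 joins SMAD4, moves into the nucleus and binds DNA at promoters and enhancers. In human embryonic stem cells (hESCs), BMP4 drives exit from pluripotency and differentiation, and SMAD1 is among the first factors to carry its signal. Sites that SMAD1 occupies after BMP4 and not before it are therefore of interest as places where the signal may first reach the genome.

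The cells were H1, an established hESC line kept in mTeSR1 medium on Matrigel, and DNA bound by SMAD1 was recovered from formaldehyde-fixed cells with a SMAD1 antibody and sequenced (ChIP-seq). The cells were either untreated or given BMP4 at 50 ng/ml for 60 min. Each condition has 1 SMAD1 ChIP sample and 1 input sample, and all 4 come from unmodified H1 cells. The data are 1 peak list for each condition, which gives every peak's coordinates in the genome build hg19 and its score. Replicates were merged before peaks were detected, by the study's methods, so the values carry no spread between replicates and the conditions could not be compared by a test.

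The regions described here are 394 isolated broad peaks of the BMP4 list, or 5.13% of its 7682 peaks. They were selected on measured values, namely their width and their distances to other peaks. A member is from 1000 to under 2000 bp wide. It has no untreated peak within 10 kb, counted from edge to edge, and no other BMP4 peak whose midpoint lies within 10 kb of its own. Such a peak stands alone in the BMP4 list and has no counterpart near it in the untreated list, which holds 5203 peaks. A peak absent from the untreated list was only below that list's minimum score, so absence does not mean that SMAD1 was not bound there.

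The width limit kept 1132 BMP4 peaks, or 14.7% of the list. Of these, 575 overlapped no untreated peak and 479 had none within 10 kb. The last step, which took out peaks near another BMP4 peak, left the 394 members. The same rule with the lists exchanged kept 917 untreated peaks by width, 436 without overlap, 300 with no BMP4 peak within 10 kb and 196 isolated broad untreated-only peaks, 3.77% of the untreated list. There were thus 2.01 times as many members as peaks of this mirror class. When the BMP4 list was shortened to the length of the untreated list by leaving out its lowest scores, the ratio was 1.85, with 400 members and 216 mirror peaks. With a lower width limit of 1200 bp it was 1.24, so the excess of members lay mainly in the narrower part of the width range.

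Members were broad peaks of moderate to high score. The score was taken to be −log10 of the p-value against input, times 10, as the authors' peak caller writes it, and both lists start at 50, a p-value of 1e-05. The median score of members was 148, with quartiles of 101 and 231 and a range from 50.2 to 1614. Its 95% interval from order statistics ran from 137 to 159.9, and it covers the number of peaks alone. A score of at least 100 was held by 298 of the 394 members, which is 75.6% (95% exact binomial interval 71.1 to 79.8). In the whole BMP4 list this share was 20.2%. The score rises with peak width, which chose the members, so this difference is a description and not a finding about them.

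Within the members, scores of 100 to under 150 were the most frequent band, with 105 peaks. Another 72 lay between 150 and 200, and 68 between 200 and 300. Higher scores thinned out quickly, with 41 members from 300 to under 500, 8 from 500 to under 1000 and 4 at 1000 or above. At the low end, 54 members scored from 75 to under 100, 26 from 60 to under 75 and 16 under 60. No member reached 3100, the score at which many of the strongest peaks of the list are tied.

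The median width of members was 1112 bp, with quartiles of 1043 and 1251 bp, so most lay close to the lower width limit. The band from 1000 to under 1100 bp held 175 members, or 44.4%. It was followed by 95 members from 1100 to under 1200 bp, 45 from 1200 to under 1300 bp and 30 from 1300 to under 1400 bp. Only 49 members were wider than that, with 23 from 1400 to under 1600 bp, 18 from 1600 to under 1800 bp and 8 from 1800 to under 2000 bp. Together the members covered 467 kb.

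The 2 members at the lower width limit were both 1000 bp wide and lay on chromosome 6. One, from 116648684 to 116649683, scored 70.4 and the other, from 166778428 to 166779427, scored 106. Just outside it were peaks of 999 bp on chromosome 18 (score 135) and 998 bp on chromosome 2 (score 129.9), so both peaks left out here scored higher than both members. At the upper limit the widest member, of 1978 bp on chromosome 2 from 92282922 to 92284899, scored 59.96. The next, of 1958 bp on chromosome 11 from 3674500 to 3676457, scored 121. Just outside were a peak of 2011 bp on chromosome 12 with a score of 529 and one of 2025 bp on chromosome 1 with a score of 50.96.

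The distance limits also cut through a continuous range. The members nearest to an untreated peak lay on chromosome 1 from 17796523 to 17797640 (score 201, 10.08 kb away) and on chromosome 17 from 855183 to 856504 (score 326, 10.13 kb away). Left out by this limit were a peak on chromosome 1 with a score of 116 at 9.65 kb and a peak on chromosome 9 with a score of 247 at 9.61 kb. The members nearest to another BMP4 midpoint had it at 10.4 kb, on chromosomes 11 (score 84.2) and 7 (score 64.2). Just outside was a pair of peaks on chromosome 1 with midpoints 9.83 kb apart and scores of 59.6 and 67.7.

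Score and width were loosely related among members, with a Spearman rho of 0.17 across 394 peaks. Peaks of 1 library are not replicates and the rule limits the width, so this is a description with no p-value. Among isolated BMP4-only peaks under 1000 bp, the same coefficient was 0.57 across 5284 peaks. The median score climbed from 54.3 at 500 to under 600 bp to 80.6 at 800 to under 900 bp and 108 at 900 to under 1000 bp. It was 134 for members of 1000 to under 1100 bp, 164 at 1100 to under 1200 bp and 197 at 1200 to under 1300 bp. Above that it went no higher in a regular way, with medians of 151, 159, 229 and 95.6 in the bands that start at 1300, 1400, 1600 and 1800 bp, the last of which held 8 members.

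**Figure D1:**
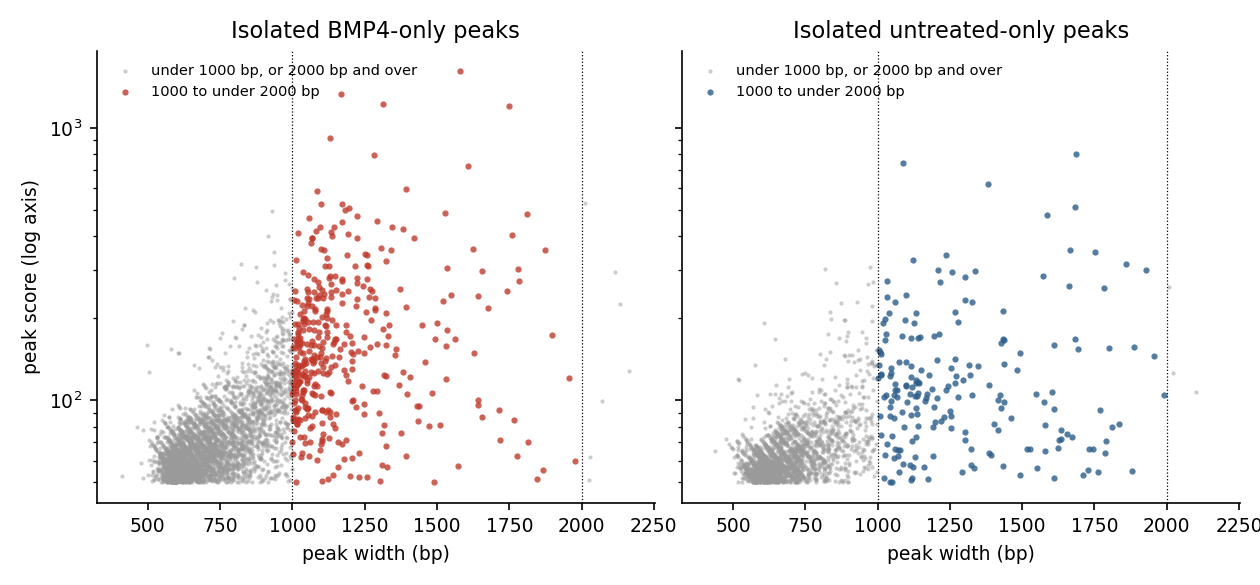
Score (log axis) against width in bp for isolated peaks found only after BMP4 (left) and only in untreated cells (right), 1 point per peak, with dotted lines at the width limits of 1000 and 2000 bp; peaks of 2200 bp or more are not drawn. The 394 broad BMP4-only peaks crowd just above 1000 bp and reach a score of 1614, whereas the 196 broad untreated-only peaks are spread more evenly over width and reach 799.6.

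The mirror class differed from the members in how its widths were spread. Isolated untreated-only peaks of 1000 to under 1100 bp numbered 52, against 175 members, a ratio of 3.37. The ratio was 2.16 at 1100 to under 1200 bp and 1.96 at 1200 to under 1300 bp. It fell to 0.92 at 1400 to under 1600 bp and 0.69 at 1600 to under 1800 bp, where 26 untreated-only peaks stood against 18 members. Isolated peaks from 500 to under 1000 bp, which are not members, had ratios from 1.30 (600 to under 700 bp) to 2.84 (900 to under 1000 bp). Mirror peaks had a median width of 1206.5 bp (quartiles 1094.5 and 1437 bp).

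Mirror peaks also had lower scores, with a median of 105 (95% interval 99.4 to 115) against 148 for members, a difference of 43.2. With a lower width limit of 900 bp the difference was 26.05. Of the 196, 56.6% (49.4 to 63.7) scored at least 100. In the narrowest band, 1000 to under 1100 bp, 78.3% of members (71.4 to 84.2) and 59.6% of mirror peaks (45.1 to 73.0) did so. Isolated peaks of 900 to under 1000 bp, which are not members, had shares of 56.0% in the BMP4 and 29.9% in the untreated list. At 800 to under 900 bp the shares were 22.8% and 13.7%, and at 700 to under 800 bp 8.43% and 2.07%. From 500 to under 700 bp they were 0.820% or less and higher in the untreated list. Higher BMP4 scores were thus not particular to members. Scores grow with sequencing depth, which the lists do not give, so the part of depth in the difference between members and mirror peaks was not tested.

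Ranks were also compared, each within its own list. The median rank of a member was 936 of 7682, the upper 12.2% of the BMP4 list. For mirror peaks it was 1051 of 5203, the upper 20.2% of the untreated list. The 500 highest-scoring peaks of each list held 53 members (10.6%) and 20 mirror peaks (4.00%). The 1000 highest held 214 (21.4%) and 91 (9.10%). Members were 5.13% of the whole BMP4 list and mirror peaks 3.77% of the shorter untreated list. Ranks follow the score, which is tied to the width that chose both classes, so these counts are values only. Neither class had a peak among the 250 highest, so the strongest signals of both lists lay outside them.

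The strongest broad BMP4 peaks were ones that overlapped an untreated peak. Those 557 peaks had a median score of 841, and 194 of them scored 3100 or more. The study's authors judged enrichment at transfer RNA (tRNA) genes in these data to be nonspecific. Which peaks lie at tRNA genes was not analysed here, and whether members include any is therefore not known. Broad BMP4-only peaks that were not isolated, 181 in number, had a median score of 105 and quartiles of 66.1 and 185, lower than the members by 43.3 in the median.

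**Figure D2:**
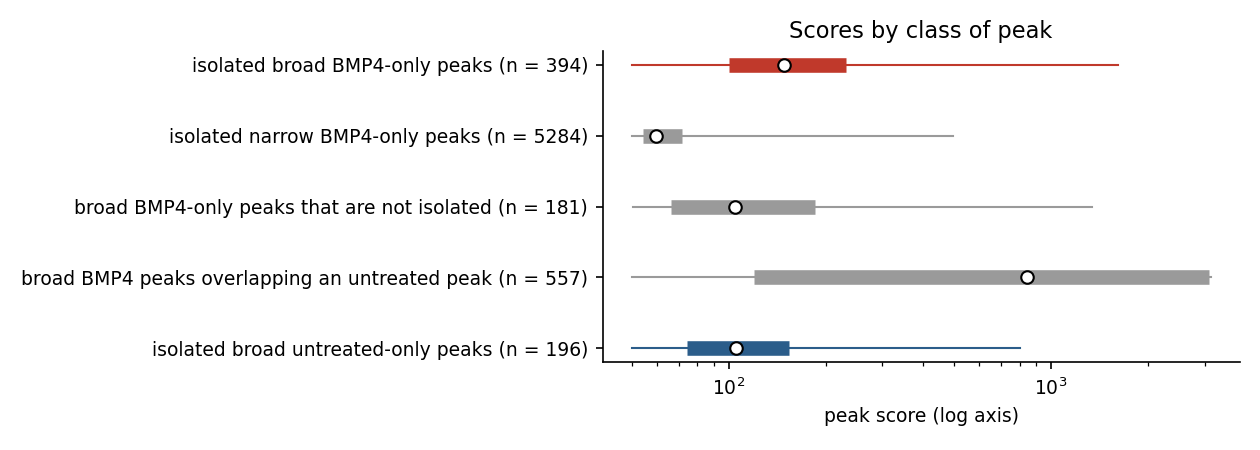
Peak scores (log axis) in 5 classes of peaks, with the number of peaks in each; thin lines give the range, thick bars the quartiles and open circles the median. Isolated broad BMP4-only peaks have a median of 148, between the 59.7 of isolated narrow ones and the 841 of broad peaks that overlap an untreated peak.

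The share of BMP4-only peaks that were members rose with the minimum score up to 200, levelled off at 300 and was lower at 500 and above, where few peaks remained. Over all scores they were 394 of 6708 BMP4-only peaks, or 5.87% (95% interval 5.32 to 6.46). At a minimum score of 100 they were 298 of 915 (32.6%, 29.5 to 35.7), and at 200 they were 121 of 212 (57.1%, 50.1 to 63.8). At 300 they were 53 of 92 (57.6%, 46.9 to 67.9). At 500 they were 12 of 27 (44.4%, 25.5 to 64.7), and at 1000 they were 4 of 9. Of isolated BMP4-only peaks of any width with a score of at least 200, 121 of 155 were members, or 78.1% (70.7 to 84.3). Most strong, lone BMP4-only peaks were thus of member width, and score and width are tied in these lists.

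The same shares of the mirror class among untreated-only peaks are given as values only, since peaks of 1 list are not replicates of a condition and the rule used width. At a minimum score of 100 the mirror class held 111 of 445, or 24.9%. At 200 it held 29 of 92, or 31.5%, and at 500 it held 4 of 10.

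The 25 highest-scoring members lay on 16 chromosomes and scored from 416 to 1614. In the BMP4 list they ranked from 284 to 422. Chromosome 3 held 4 of them, and chromosomes 5, 11 and 15 held 3 each. Their median width was 1196 bp, and 13 of the 25 were under 1200 bp wide.

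Chromosome 5 held the top member, 59004749 to 59006327, which scored 1614 and was 1579 bp wide. It was remote from other sites in both conditions, with the nearest untreated peak at 274 kb and the nearest BMP4 midpoint at 314 kb. A second member on chromosome 5, from 174147403 to 174148569, scored 1334 at a width of 1167 bp. It had a BMP4 neighbour at 27.9 kb but no untreated peak within 199.5 kb. On chromosome 11, the member from 75479031 to 75480345 scored 1222, with the nearest untreated peak at 196 kb and the nearest BMP4 midpoint at 365 kb.

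The last of the 4 members above 1000 was a peak of 1750 bp on chromosome 3, 170074165 to 170075914, which scored 1205. Its nearest untreated peak was at 158 kb. Below these 4 the scores dropped to 919 for a peak of 1131 bp on chromosome 2 from 43406730 to 43407860, which had an untreated peak at 68.9 kb. A member near the start of chromosome 7, from 948367 to 949649, scored 794 with an untreated peak at 69.6 kb. The member on chromosome 10 from 28965170 to 28966777 scored 727, and both its nearest untreated peak, at 699.7 kb, and its nearest BMP4 peak, at 297 kb, were far away.

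The next 5 members scored between 508 and 599. The one on chromosome 17 from 69028431 to 69029824 scored 599 and was 386 kb from an untreated peak. Chromosome 22 from 23863517 to 23864600 scored 588 and lay in a denser stretch, with peaks of both lists about 35 kb away (35.2 kb for the untreated and 34.97 kb for the BMP4 neighbour). Chromosome 20 from 55499845 to 55501016 scored 527 with its nearest untreated peak at 639 kb. The others were chromosome 11 from 116451240 to 116452339 (score 526) and chromosome 15 from 74753161 to 74754356 (score 508).

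The remaining 13 of the 25 scored from 416 to 499 and so hardly differed in rank. The member most remote from untreated peaks was among them, a peak of 1813 bp on chromosome 6, 93556585 to 93558397, which scored 481 and had an untreated peak no nearer than 3545 kb. At the other extreme, chromosome 5 from 116199476 to 116201004 scored 487 with an untreated peak at 18.1 kb. The member 65493361 to 65494454 of chromosome 8 scored 434 and had the most remote BMP4 neighbour of the 25, at 1532 kb. The members on chromosome 15 from 62587205 to 62588284 (score 417) and on chromosome 1 from 39269248 to 39270380 (score 416) had BMP4 neighbours at 15.6 and 14.5 kb.

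**Figure D3:**
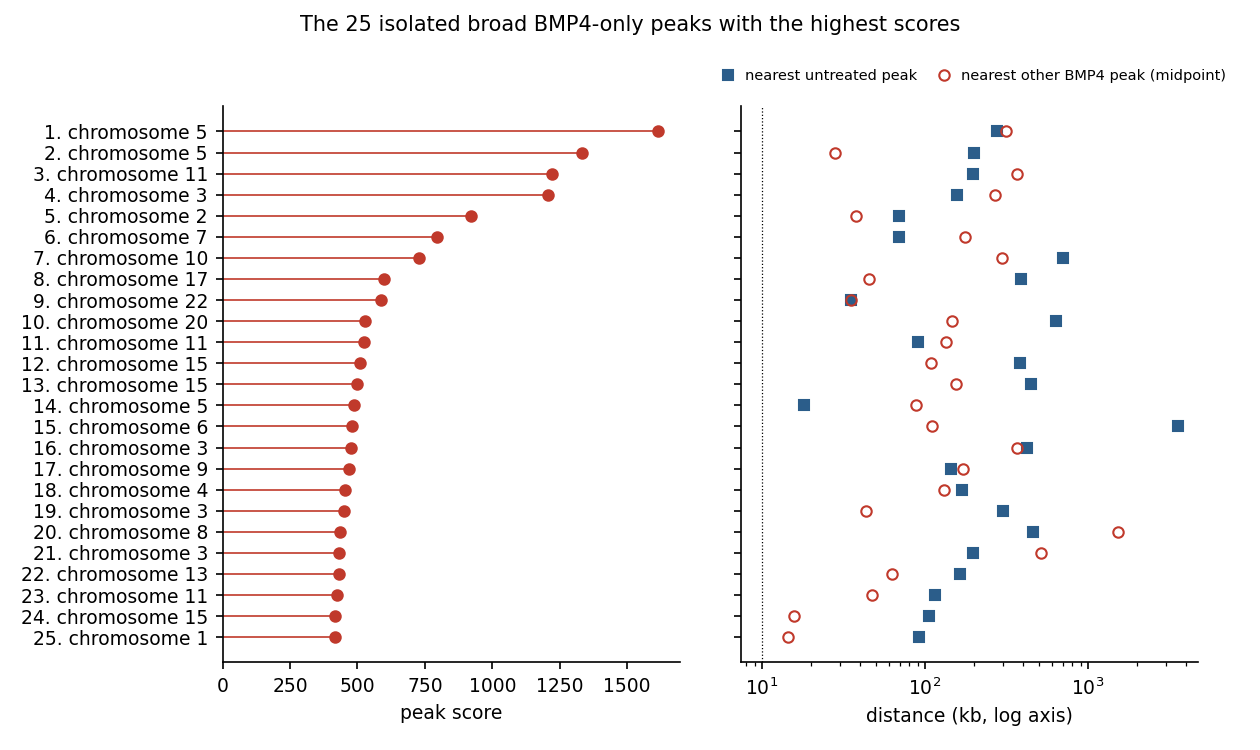
The 25 members with the highest scores, in order from the top and labelled by chromosome; the left panel gives the score and the right panel the distance in kb (log axis) to the nearest untreated peak (squares, edge to edge) and to the nearest other BMP4 peak (open circles, between midpoints), with a dotted line at the 10 kb of the rule. Scores fall from 1614 to 508 over the first 12 members and lie between 416 and 499 in the rest, and the distances range from 14.5 to 3545 kb.

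Most members lay far beyond the 10 kb that the rule demands. The median distance to the nearest untreated peak was 221 kb, with quartiles of 78.2 and 505 kb, and 100 of the 394 members (25.4%, 21.2 to 30.0) had no untreated peak midpoint within 500 kb on either side. The nearest other BMP4 midpoint was a median of 102 kb away, with quartiles of 42.8 and 231 kb. Isolated narrow BMP4-only peaks, which obey the same distance rule, had larger medians of 243 kb to an untreated peak and 139 kb to another BMP4 peak. Of these narrow peaks, 26.1% (24.9 to 27.3) had no untreated midpoint within 500 kb, so this was not particular to members. Another BMP4 midpoint lay under 50 kb away for 28.4% of members (24.0 to 33.2) and 21.3% of narrow peaks (20.2 to 22.5). The rule used this distance and peaks of the same list are not replicates, so these shares are values only.

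What lay next to a member was usually a weak and narrow peak. For 306 of 394 members, or 77.7% (73.2 to 81.7), the nearest BMP4 peak was an isolated narrow BMP4-only one, and these neighbours had a median score of 59.6. For 32 members (8.12%, 5.62 to 11.3) it was a peak that overlapped an untreated one, with a median score of 169, and for 17 it was another member. The same classes of neighbour took 79.1% and 6.85% of the narrow peaks, within the members' intervals. The nearest untreated peaks were weak as well, with a median score of 59.5, and 55 of them scored at least 100. For the 5284 isolated narrow peaks, the nearest untreated peaks had a median of 59.1, and 659 scored at least 100. The whole untreated list had a median of 61.7, so weak untreated neighbours were not particular to members.

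Members with a score under 100 had an untreated peak nearby more often than those from 100 to under 200, while the highest-scoring members lay between them. Of the 96 members with a score under 100, 28.1% (19.4 to 38.2) had an untreated peak under 50 kb away. Of the 177 with scores from 100 to under 200 this was 9.60% (5.70 to 14.9). Of the 121 at 200 or more it was 15.7% (9.73 to 23.4). The median distance to an untreated peak was 149 kb in the lowest group, 271 kb in the middle one and 208 kb in the highest, so it did not change in 1 direction with score. Another BMP4 midpoint lay under 50 kb away for 36.5% (26.9 to 46.9), 24.9% (18.7 to 31.9) and 27.3% (19.6 to 36.1) of the 3 groups. The rule used both distances and peaks of 1 list are not replicates, so the shares in these groups are values only.

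**Figure D4:**
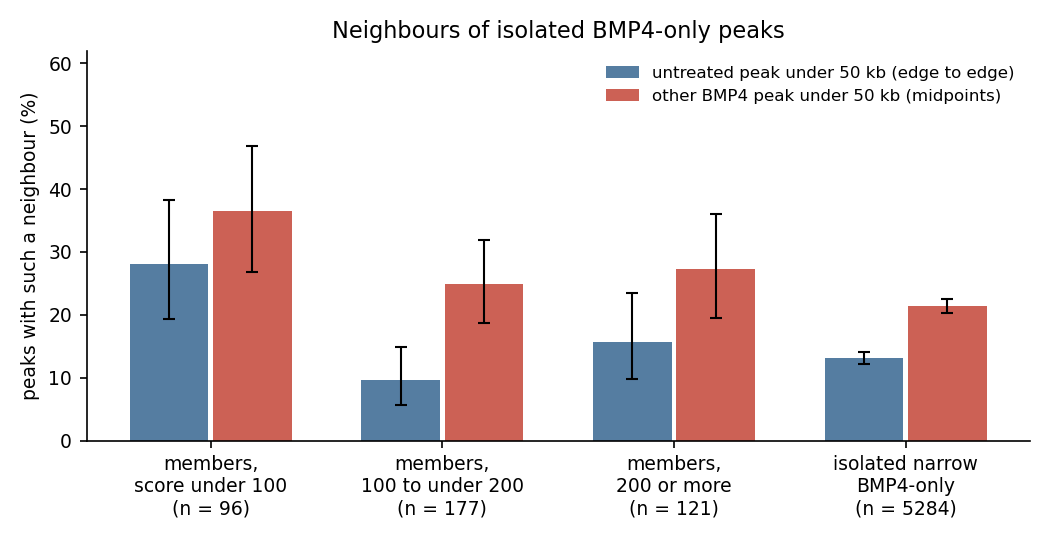
Share of isolated BMP4-only peaks, in percent, that had an untreated peak under 50 kb away (first bar of each pair) or another BMP4 midpoint under 50 kb away (second bar), for members in 3 ranges of score and for isolated narrow peaks; lines are 95% exact binomial intervals, which cover the number of peaks alone. Members with a score under 100 have the highest shares, 28.1% and 36.5%, given as values only because the rule used both distances.

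Among the 16 members with a score under 60, 8 had an untreated peak under 50 kb away. Over all members this was 63 of 394 (16.0%, 12.5 to 20.0), and over isolated narrow peaks 13.1%. The rule used this distance and 16 peaks are few, so the count is a value only. The members under 60 included chromosome 1 from 120600851 to 120602696 (score 51.4, width 1846 bp, untreated peak 25.7 kb away). Another, on chromosome 9, was the peak 67290924 to 67292249 (score 56.9, untreated peak 15.0 kb away). Far from untreated peaks were the member 44541824 to 44543314 of chromosome 18, which scored 50.3 and was 626 kb away, and the member 107437470 to 107438628 of chromosome 6, which scored 56.7 and was 492 kb away. These 4 were picked after their values were seen.

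Members were rarely near each other. Along the chromosomes, neighbouring members were a median of 4.51 Mb apart, with quartiles of 1.94 and 9.15 Mb, and 7 of 371 gaps were under 100 kb. The tightest pair lay on chromosome 14, where peaks from 38659087 to 38660199 (score 188) and from 38670507 to 38671610 (score 156) had midpoints 11.4 kb apart. A second pair, on chromosome 18 from 56514572 to 56515592 (score 191) and from 56528905 to 56530309 (score 122), was 14.5 kb apart. Both pairs had scores above 100 throughout. In 4 of the other 5 pairs, on chromosomes 1, 4, 8 and 16, all scores lay between 52.6 and 91.7.

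Divided into windows of 1 Mb, the members fell into 362 windows, of which 333 held 1 member, 26 held 2 and 3 held 3. The windows with 3 were on chromosome 1 from 144 to 145 Mb and from 145 to 146 Mb, and on chromosome 16 from 32 to 33 Mb. All were rich in untreated peaks, with 16, 21 and 9 of them, against 9, 16 and 8 BMP4 peaks. The scores of the members in them ran from 52.6 to 149. Members there thus stood in stretches with many untreated peaks, at or beyond the 10 kb limit, and the part of this crowding in their scores was not tested.

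Members were found on 23 of the 24 chromosomes. Chromosome 1 held the most, 43, followed by chromosome 3 with 32, chromosomes 4 and 5 with 30 each and chromosome 2 with 29. Their numbers mostly followed the number of isolated BMP4-only peaks on a chromosome, of which members made up 6.90% (95% interval 6.26 to 7.59) over the genome. The share was highest on chromosomes 16 (17 of 178, 9.55%, 5.66 to 14.9) and 18 (13 of 142, 9.15%, 4.97 to 15.1), and low on chromosomes 11 (12 of 284, 4.23%, 2.20 to 7.26) and 19 (4 of 108, 3.70%, 1.02 to 9.21). All 4 intervals held the genome-wide share.

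Chromosome X had no member. It held 116 BMP4 peaks, of which 74 were isolated BMP4-only peaks, and 0 of 74 allows a share of up to 4.05% by the 3 counts that a count of 0 allows, or 4.86% by the exact interval. Both are below the genome-wide 6.90%. The widest isolated BMP4-only peak on X was 982 bp and the highest score among them 158. Chromosome X had 13 BMP4 peaks of member width, but 8 of them overlapped an untreated peak and the other 5 were near another peak. Its isolated untreated-only peaks did include broad ones, 7 of 70, or 10.0% (4.12 to 19.5). With 24 chromosomes looked at, 1 such interval below the genome-wide share is a description of these lists.

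The median score of members varied between chromosomes, from 115 on chromosome 1 to 229 on chromosome 15 among those with at least 10 members. Chromosome 1 thus had the most members and low scores, with a highest score of 416. Chromosomes 5 (median 178, highest 1614) and 18 (median 178, highest 395) were among those in between. Over all chromosomes, 557 of 1132 broad BMP4 peaks overlapped an untreated peak. On chromosome 18 this was 1 of 16, and that chromosome held 85 untreated peaks, 1.63% of their list. On chromosome 6 it was 128 of 164, with 358 untreated peaks, 6.88% of their list. Of the broad BMP4 peaks on chromosome 6, 26 were members.

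**Figure D5:**
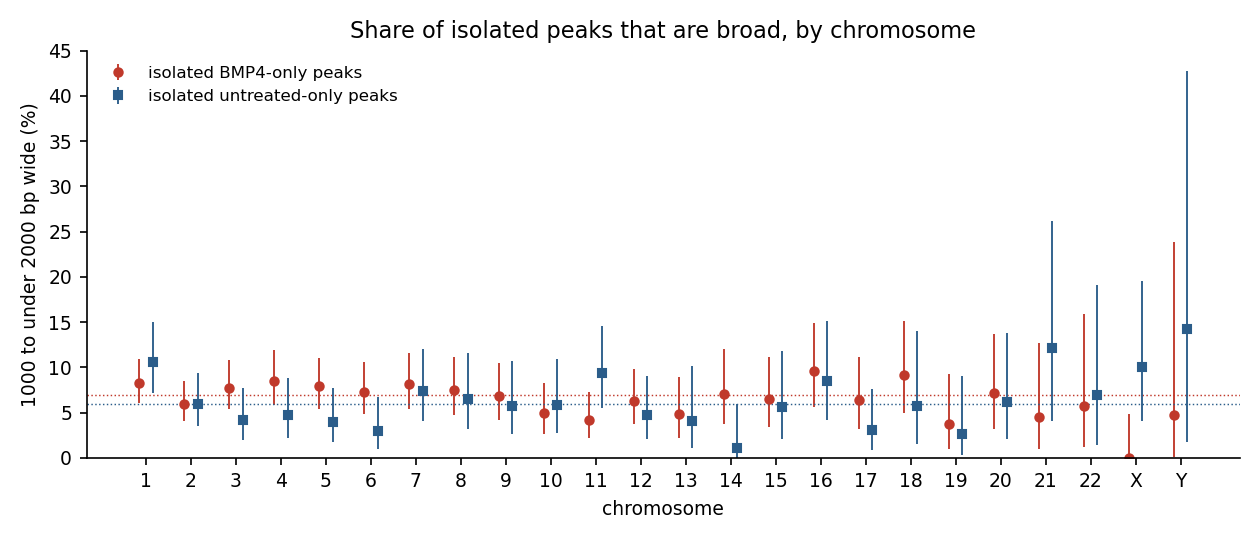
Share of isolated peaks, in percent, that are 1000 to under 2000 bp wide on each chromosome, for BMP4-only (circles) and untreated-only (squares) peaks; lines are 95% exact binomial intervals and dotted lines the shares over all chromosomes, 6.90% and 5.99%. Chromosome X has no broad isolated BMP4-only peak, and most intervals hold the genome-wide share.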

How the data were processed

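Per the labels and the study's methods, the authors aligned 50-base single reads to hg19 with BWA 0.7.5a, merged replicates and found peaks with MACS 1.4.2 against input, at default settings. The deposited lists are many times longer than the study's peak numbers, so they may come from another run. The study also counted slightly fewer peaks after BMP4 than in untreated cells, the reverse of these lists. The median member ranked 936 in the BMP4 list, beyond the number of BMP4 peaks that the study gives. The number of members and its ratio to mirror peaks therefore hold for the deposited lists only. The deposited score was taken to be −log10 of a peak's p-value times 10, after the program's format and the minimum of 50. Deposited starts count from 0 and were printed counting from 1. The lists hold no read counts, so depth is unknown.

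Members were found by the rule in the report, with no filter on score, and the rule was tested on simulated lists. Shares have 95% exact binomial (Clopper-Pearson) intervals and medians order-statistic intervals, both of which treat peaks as independent. No test was run. The members and classes were chosen with earlier results of these data known. Peaks named are the 25 highest-scoring members and those next to each limit of the rule, except where stated. Input samples were not analysed here.

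The reference at hand was hg38. On 15 of 24 chromosomes a peak ended past the hg38 end, so genes, motifs and sequences are not reported. Python 3.11.15, numpy 2.4.6, pandas 2.3.3, scipy 1.17.1 and matplotlib 3.10.9 were used.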

Additional observations from a re-analysis of the deposited data

How the results depend on the processing

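The lower width limit was the choice that mattered. From 900 bp, the rule found 783 members with a median score of 119.7, of which 65.9% scored at least 100, and the median lay 61.0 above that of isolated narrow peaks and 26.05 above that of mirror peaks. From 1200 bp it found 124 members with a median score of 161.6, a difference of 101 to narrow peaks and 1.24 times as many members as mirror peaks. Scores rise with width and widths crowd near 1000 bp, so a fixed limit sets these values by construction. Of 49 values recomputed, 40 stayed close to the reported value. Numbers of peaks, medians, shares and the ratio cannot be negative, so only differences of medians could have changed sign. The difference to narrow peaks is positive through the rise of score with width, so its sign tells nothing. The difference to mirror peaks stayed positive under every alternative. For numbers of peaks and their ratio, close meant within 1.5 times, and for medians and shares it meant within the reported value's 95% interval. For differences of medians it meant within limits got by subtracting opposite ends of the 2 medians' 95% intervals. Such limits are wider than a 95% interval of the difference. For the difference to mirror peaks they were 21.8 and 60.5, so the 26.05 from 900 bp counted as close. Besides the width limits, the recomputed values cover distances of 5 and 50 kb to the other list, isolation by edges and scores of at least 60. They also cover a BMP4 list shortened to 5203 peaks, chosen after seeing the data. Also not planned were the differences and the ratio for isolation by edges and for 900 bp, and all counts of named peaks. Some alternatives kept nearly the same peaks, so the closeness of their values was largely fixed in advance. Isolation by edges gave 388 members, all of them among the 394 of the report. A distance of 5 kb gave 409 members, which included all 394. A distance of 50 kb kept 331 members and 23 of the 25 named peaks. The alternatives that needed an hg19 genome, for gene starts and motifs, could therefore not be run. No paired analysis was possible because only 1 peak list stood for a condition.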
